A study of Homo sapiens with 8 samples.

Results

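The question was how far the transcriptional response to a NEDD8 inhibitor depended on the cell line that received it. Every gene was given 1 number, the log2 fold change of NEDD8i against DMSO in CAL27 minus the same change in A431, called the interaction here. All 18738 genes that passed a filter on low counts, of 61533 gene identifiers counted, were tested for it, and 6369 genes, 34% of those tested, differed between the lines at an adjusted p under 0.05 (edgeR's quasi-likelihood test with Benjamini-Hochberg adjustment). Such genes are described as called. A negative interaction means that the CAL27 response lay below the A431 response, whatever the sign of either.

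The study used 2 established human squamous carcinoma lines: A431, from an epidermoid carcinoma of the skin, and CAL27, from a squamous cell carcinoma of the tongue. Each line had 2 libraries from cells given the vehicle DMSO and 2 from cells given the inhibitor, labelled NEDD8i, all collected after 16 h. No genetic change or further agent is given for any of these 4 groups. The sources used here give neither the inhibitor's identity nor its dose, nor the media, nor if paired libraries stem from separate cultures, so p-values measure the spread between libraries, which may be technical. With 1 line from each site, a difference between the lines cannot be told apart from a difference between skin and tongue tumours or between any other properties of these lines.

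NEDD8 is a small protein related to ubiquitin. It is activated by the enzyme pair NAE1 and UBA3, passed to the carrier UBE2M or UBE2F, and joined to cullins, the scaffolds of a large family of ubiquitin ligases that are active only with NEDD8 attached. Among the proteins that cullin ligases mark for destruction are the NF-kB inhibitor encoded by NFKBIA, the oxidative stress factor NRF2, the hypoxia factor HIF1A, the replication licensing factor CDT1, the cell cycle inhibitor p27 encoded by CDKN1B, and nuclear forms of MYC, NOTCH1 and the sterol factors SREBP. Proteins were not measured, and the data are levels of RNA from bulk cultures, in which fewer cells of a kind and less RNA per cell cannot be told apart.

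The libraries held 49037868 to 62509817 gene counts. Levels are given as CPM, gene counts per 1e6 counts of the scaled library size. These were 3' end libraries, in which a gene gives reads from its end whatever its length. Of 12 squamous epithelial markers all were tested, and their summed level was 11500 to 11600 CPM in A431 under DMSO, 15200 to 15800 under NEDD8i, 16500 to 16600 in CAL27 under DMSO and 22900 to 23700 under NEDD8i. Markers of other cell types were far lower, although each sum moved with treatment. The 9 fibroblast markers summed to 35.8 to 39.6 CPM in A431 under DMSO and 17.7 to 18.7 under NEDD8i, and to 20.8 to 24.2 and 6.56 to 10.8 in CAL27. The 8 leukocyte markers summed to at most 18.6 CPM in any library, with PTPRC and CD68 at 0 in all. The 6 endothelial markers summed to at most 21.9 CPM with KDR at 0, and the 6 melanocyte markers to at most 55.6 CPM with TYR and DCT at 0. The mitochondrial share of counts was 2.69% to 3.15% in A431 under DMSO and 1.96% to 2.27% under NEDD8i, and 1.56% to 1.77% and 1.02% to 1.45% in CAL27. The part of these shifts in the results was not tested.

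Most genes called in 1 line were called in the other as well. In A431, 4224 genes rose (22.5% of those tested) and 3951 fell (21.1%), and in CAL27 4348 rose (23.2%) and 4943 fell (26.4%). Scaled by library totals alone, the share of A431 calls that rose was 41.58% in place of 51.67%, and the median response moved from -0.01 to -0.11 in A431 and from -0.04 to -0.12 in CAL27. Of the A431 calls, 71.29% were called in CAL27 as well, and of the CAL27 calls 62.73% in A431. Among the 5828 genes called in both lines, 4893 moved the same way and 935, or 16.04%, moved in opposite directions. The responses of the lines share no library, and across genes their Pearson correlation was 0.3728 over all genes and 0.6194 over the 9972 genes that reached 10 CPM in a group. Genes are not independent replicates, and these values are descriptions.

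The 6369 genes called for the interaction were not balanced in sign. The CAL27 response was the higher in 2658 (14.2% of the genes tested) and the lower in 3711 (19.8%). The size of this imbalance depended on scaling. Of the calls, 41.73% had the higher response in CAL27, against 44.26% under library totals, 45.78% with RLE scaling factors and 45.96% in DESeq2. The median interaction over all genes was -0.0376, and -0.001 with RLE factors and -0.0013 in DESeq2. An interaction of at least 2-fold was called for 708 genes with the higher and 1315 with the lower response in CAL27. The calls fell into 5 kinds. In 1258 genes only the A431 response was called, and in 1914 only that of CAL27. Both lines moved the same way in 2137 genes, by more in A431 in 708 and by more in CAL27 in 1429. In 935 genes the responses were opposite, 4.99% of all genes tested, of which 616 rose in A431 and fell in CAL27 and 319 did the reverse. A further 125 genes passed for the interaction with neither response called alone. Well-expressed genes were called more often, 55.26% of those that reached 10 CPM in a group, a share against which the counts in lists of well-expressed genes can be read.

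**Figure D1:**
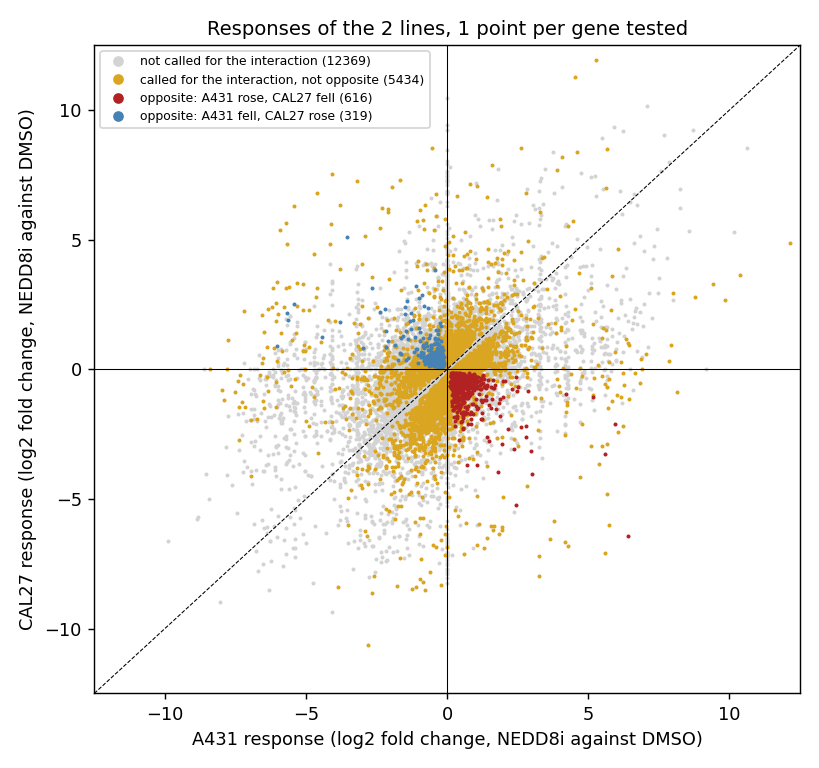
Response of A431 (x axis) and of CAL27 (y axis) for each of the 18738 genes tested, as log2 fold changes of NEDD8i against DMSO, with the line of equal response dashed. The 935 opposite responders fill the lower right (616 genes, red) and upper left (319 genes, blue) fields, next to 5434 other genes called for the interaction (orange).

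Of the genes that moved in opposite directions, the 8 with the largest smaller response were taken in each direction among genes that reached 5 CPM in a group. The 8 that rose in A431 and fell in CAL27 were IL1B, CXCL1, CCL20, MME, P2RY6, MMP1, GCNT3 and ZNF469. They encode an interleukin, 2 chemokines, the membrane peptidase neprilysin, a nucleotide receptor, interstitial collagenase, a mucin-type glycosyltransferase and a zinc finger protein. IL1B (chr2:112829751-112836779, GRCh38) measured 18.5 and 16.5 CPM in A431 under DMSO and 61.4 and 67.1 under NEDD8i, and 114 and 130.0 in CAL27 under DMSO and 33.2 and 36 under NEDD8i. The treated A431 libraries were above the controls and the treated CAL27 libraries below theirs, with no overlap. The responses were 1.88 ± 0.09 and -1.82 ± 0.08 (log2, SE), and the interaction was -3.69 ± 0.12 (edgeR adjusted p = 6.4e-13). GCNT3 rose from 0.834 and 1.49 to 7.29 and 8.65 CPM in A431 and fell from 8.23 and 8.22 to 1.38 and 2.21 in CAL27, so that the line with the higher level was CAL27 under DMSO and A431 under NEDD8i. P2RY6 did the same at a lower level, from 0.765 and 0.466 to 2.28 and 2.51 CPM in A431 and from 5.63 and 4.89 to 0.483 and 0.935 in CAL27. MME and ZNF469 were already the lower in CAL27 under DMSO and moved further apart. MME went from 1.84 and 1.9 to 11.9 and 11.3 CPM in A431 and from 0.5 and 0.999 to 0.223 and 0.1 in CAL27. ZNF469 went from 3.06 and 2.56 to 13.9 and 16.8 CPM in A431 and from 1.19 and 1.62 to 0 and 0.0668 in CAL27, and since a library stood at 0 its CAL27 response depends on the prior count of the fit. That response was -9.29 without CAL27_NEDD8i replicate 2 in place of -5.24, and the CAL27 response of MME was -1.62 without CAL27_DMSO replicate 2 in place of -2.24.

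The 8 that fell in A431 and rose in CAL27 were LIMCH1, ADAMTS6, GEM, STARD13, RNASE7, SEMA6D, HAP1 and CLTRN. RNASE7 (chr14:21042362-21044233), an antimicrobial ribonuclease of skin, fell from 3.04 and 2.99 to 0.963 and 1.27 CPM in A431 and rose from 15 and 13.8 to 96.4 and 84.7 in CAL27. All 4 CAL27 libraries were above all 4 A431 libraries before and after treatment, and the interaction was 4.06 ± 0.20 (edgeR adjusted p = 8e-11). STARD13 (chr13:33103137-33350624), a GTPase-activating protein, fell from 19.2 and 20.1 to 8.1 and 8.05 CPM in A431 and rose from 13.6 and 12.8 to 41.7 and 36.4 in CAL27. Its levels in the lines were close under DMSO, with A431 the higher, and far apart under NEDD8i, with CAL27 the higher. HAP1, the huntingtin-associated protein, measured 2.05 and 2.21 CPM in A431 and 2.71 and 2.67 in CAL27 under DMSO, and 0.569 and 0.783 and 6.04 and 6.45 under NEDD8i. LIMCH1, which binds non-muscle myosin, measured 1.04 and 1.51 and then 0.394 and 0.182 CPM in A431 and 54.8 and 58.7 and then 155 and 159.8 in CAL27. ADAMTS6, a secreted metalloprotease, was near the detection limit in A431, with 0.174 and 0.349 CPM under DMSO and 0 and 0.0364 under NEDD8i, whereas CAL27 rose from 4.02 and 3.38 to 134 and 118. GEM, SEMA6D and CLTRN rest on few counts in 1 line each. Without A431_DMSO replicate 1 the fall of GEM in A431 had an edgeR adjusted p of 0.0513, and the edgeR adjusted p was 0.369 without A431_NEDD8i replicate 2. Its interaction had a DESeq2 adjusted p of 0.0714. The rise of GEM in CAL27 had a DESeq2 adjusted p of 0.158 and a limma adjusted p of 0.104. The rise of SEMA6D in CAL27 was not called without CAL27_DMSO replicate 2 (edgeR adjusted p = 0.0633), nor the fall of CLTRN in A431 without A431_DMSO replicate 2 (0.0562) or A431_NEDD8i replicate 1 (0.0668). The A431 response of ADAMTS6 was -6.83 without A431_NEDD8i replicate 2 in place of -3.55, and that of LIMCH1 was -2.78 without A431_NEDD8i replicate 1 in place of -2.18.

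Among secreted inflammatory signals, more genes rose than fell in A431 and more fell than rose in CAL27. Of 27 chemokine and interleukin 1 family genes tested, 13 rose and 2 fell in A431 while 7 rose and 14 fell in CAL27. For the interaction 3 were called higher and 12 lower in CAL27, and the median interaction was -2.56 against -0.04 over all genes, or -1.90 with the 8 members that had a group at 0 set to the detection floor of 3 counts per group. The share called was 55.56%, near the 55.26% of genes that reached 10 CPM in a group. The 4 opposite members were CXCL1, CCL20, IL1A and IL1B. Chemokines such as CXCL1 draw neutrophils, CCL20 draws cells that carry CCR6, and interleukin 1 is an alarm signal of injured epithelium, stored as IL1A in keratinocytes.

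The promoters of both opposite chemokines are shown because they carry the binding motif of NF-kB, the factor that drives this gene family in inflamed epithelium. The stretches are the 250 bases before the RefSeq start (GRCh38.p14), CXCL1 at chr4:73869143-73869392 and CCL20 at chr2:227813592-227813841, both on the plus strand, with motif matches in capitals.
CXCL1: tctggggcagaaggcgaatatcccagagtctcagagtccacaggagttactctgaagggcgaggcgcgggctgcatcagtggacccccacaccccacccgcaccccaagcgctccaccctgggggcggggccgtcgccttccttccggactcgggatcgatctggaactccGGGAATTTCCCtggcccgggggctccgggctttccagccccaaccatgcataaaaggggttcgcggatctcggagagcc
CCL20: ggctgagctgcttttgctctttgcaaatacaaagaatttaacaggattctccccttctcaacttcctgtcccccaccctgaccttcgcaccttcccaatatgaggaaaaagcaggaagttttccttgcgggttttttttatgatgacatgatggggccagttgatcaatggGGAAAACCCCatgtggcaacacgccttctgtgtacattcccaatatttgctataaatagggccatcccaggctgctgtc
The search used the NF-kB consensus by name on both strands, and in CXCL1 2 overlapping matches begin 79 and 78 bases before the start. A match was present in 11 of the 20 promoters of the list that were found in the table (55%), against 6.569% of 12087 promoters of tested genes. IL1A and IL1B, the other opposite members, were not among these 11, nor was CXCL8. The share covers members whatever their response, so it describes the list and not the opposite responses. A match is a description of the letters and not a bound site.

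CXCL1 (chr4:73869393-73871308) measured 0.382 and 0.388 CPM in A431 under DMSO and 3.33 and 2.82 under NEDD8i, against 110.4 and 128 and then 13.3 and 13.7 in CAL27. Its interaction was -6.12 ± 0.22 (edgeR adjusted p = 1.9e-12), and the lines, which did not overlap in either state, came closer. IL1A rose from 14.3 and 12.1 to 75.5 and 76.5 CPM in A431 and fell from 58.1 and 61 to 36.3 and 37.1 in CAL27, which reversed the order of the lines. CCL20 fell in CAL27 from 20.1 and 23.8 to 1.39 and 1.42 CPM, while its A431 libraries held 0.0695 and 0.0388 CPM under DMSO and 0.0875 and 0.291 under NEDD8i. That rise in A431 rests on single libraries. Without A431_DMSO replicate 2 its edgeR adjusted p was 0.146, and without A431_NEDD8i replicate 2 the response was 0.66 with an edgeR adjusted p of 0.644.

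CXCL8, the main neutrophil chemokine, rose in both lines and by far more in A431, from 0.539 and 0.155 to 87.1 and 89.4 CPM there and from 147 and 168 to 296 and 308 in CAL27. Its interaction was -7.00 ± 0.19, or -8.19 without A431_DMSO replicate 1 and -6.40 without A431_DMSO replicate 2. Its rise in CAL27 had a limma adjusted p of 0.0552. CXCL2 fell in CAL27 from 13 and 16.2 to 1.75 and 1.62 CPM and stood at 0.556 and 0.194 and 0.394 and 0.51 CPM in A431, where its response was not called. IL36G was called in A431 only, from 0.313 and 0.31 to 6.08 and 4.72 CPM, with 0.927 and 1.67 and 0.985 and 1.72 CPM in CAL27. In the other direction, IL18 was called in CAL27 only, from 16.9 and 16.6 to 48.3 and 46.9 CPM against 26.7 and 26.7 and 29.7 and 29.3 in A431. IL11 rose in CAL27 from 0.222 and 0.575 to 9.44 and 10.1 CPM and measured 1.3 and 1.2 and 2.32 and 2.04 in A431, where its call was lost without any 1 of the 4 A431 libraries (edgeR adjusted p from 0.0575 to 0.145). The chemokines CX3CL1 and CCL2 and the cytokine TNF were at 0 in every A431 library, so that no response could be estimated there, and were not called for the interaction (edgeR adjusted p = 1.0 for each). CX3CL1 went from 143 and 147 to 11.2 and 12.8 CPM in CAL27.

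NF-kB target genes outside this family were called lower in CAL27 in 12 and higher in 3 of 22 tested, and 2, BCL3 and ICAM1, were opposite. BCL3, a nuclear partner of NF-kB, rose from 14.5 and 13.5 to 32.9 and 33.8 CPM in A431 and fell from 52.6 and 52.9 to 13.9 and 14.4 in CAL27, with an interaction of -3.15 ± 0.12. The feedback inhibitor NFKBIA fell in both lines, from 69.7 and 65.7 to 34 and 34.1 CPM in A431 and from 163 and 172 to 17.7 and 20.7 in CAL27. TNFAIP3, which encodes the deubiquitinase A20 and is also a feedback inhibitor, rose in both, from 12 and 11.5 to 51.4 and 52.8 CPM in A431 and from 113 and 129 to 156 and 151 in CAL27. The 2 inhibitors thus moved in different directions within each line. The list median was 0.05 in A431 and -0.55 in CAL27.

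Most sterol genes rose in A431 and most fell in CAL27. Of 22 cholesterol synthesis genes, 14 rose and 4 fell in A431, 2 rose and 17 fell in CAL27, and 19 were called for the interaction, all of them lower in CAL27. The median response was 0.44 in A431 and -0.56 in CAL27, and the median interaction -0.90 against -0.04 over all genes. The 10 opposite members included HMGCS1, MVD, FDFT1, SQLE, MSMO1, HSD17B7, SC5D and DHCR7, which are enzymes of the pathway. All 10 rose in A431 and fell in CAL27.

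MVD, mevalonate diphosphate decarboxylase (chr16:88651940-88663091), measured 40.9 and 36.9 CPM in A431 under DMSO and 84.9 and 72.8 under NEDD8i, and 45.7 and 48.4 and then 17.7 and 17.6 in CAL27. The controls of the lines lay close together, and under NEDD8i both A431 libraries were far above both CAL27 libraries. The responses were 1.02 ± 0.08 and -1.42 ± 0.09, and the interaction -2.43 ± 0.12 (edgeR adjusted p = 1.2e-10). SQLE, squalene epoxidase, moved by nearly equal amounts, 0.75 ± 0.05 in A431 and -0.74 ± 0.05 in CAL27, from 197 and 194 to 334 and 326 CPM and from 118 and 124 to 71.2 and 73.4 CPM. HMGCS1, the synthase that feeds the pathway, went from 82.7 and 84.9 to 130.5 and 130.2 CPM in A431 and from 122 and 127 to 79.8 and 77 in CAL27, so that the order of the lines turned over. DHCR7, the last enzyme before cholesterol, went from 109 and 106 to 169 and 155 CPM in A431 and from 309 and 313 to 207 and 186 in CAL27, so that the lines came closer without meeting. MSMO1, a sterol oxidase, went from 188 and 169.7 to 346 and 348 CPM and from 105 and 106 to 87.5 and 86 CPM, so that the lines moved further apart.

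Not every member rose in A431. LSS, lanosterol synthase, fell in both lines, from 94.4 and 91.6 to 83.8 and 73.2 CPM in A431 and from 150.4 and 152 to 40.8 and 43.5 in CAL27, although its fall in A431 was not called without A431_NEDD8i replicate 2 (-0.14, edgeR adjusted p = 0.177). INSIG1, which holds the sterol sensor in the endoplasmic reticulum, fell from 96.2 and 93.4 to 76.2 and 73.3 CPM and from 110.5 and 114 to 45.2 and 46.9 CPM, and SREBF2, the gene of the pathway's own transcription factor, fell by 0.28 ± 0.04 in A431 and by 0.74 ± 0.04 in CAL27 (log2, SE). In 16 of the 19 called members the difference between the lines was larger under NEDD8i than under DMSO.

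**Figure D2:**
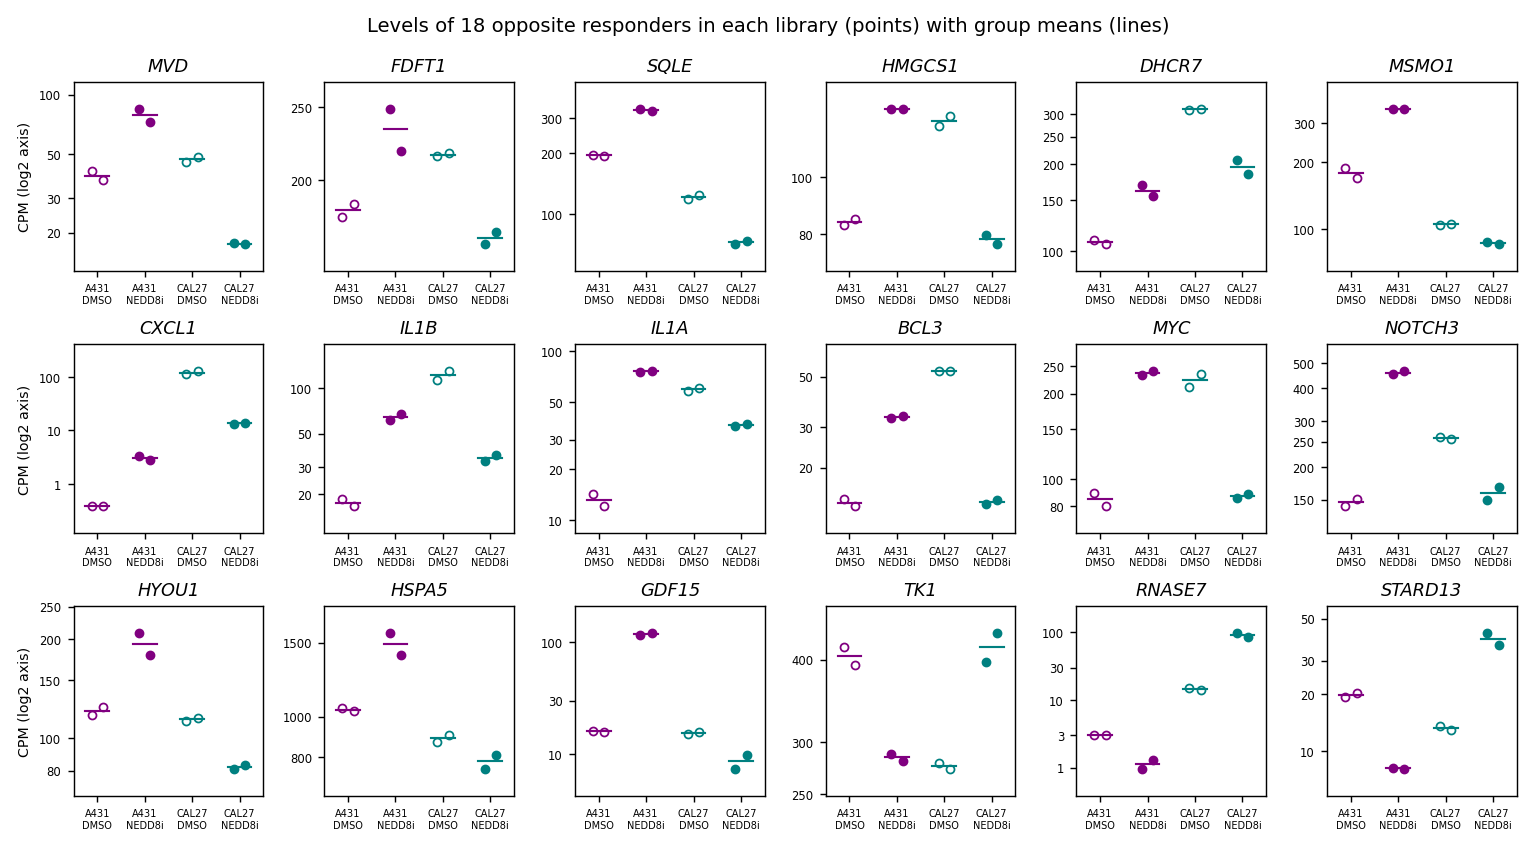
CPM in each of the 8 libraries (points, open for DMSO and filled for NEDD8i, log2 axis) and group means (lines) of 18 opposite responders: sterol genes in the top row, then cytokine, NF-kB, MYC and NOTCH genes, then chaperones and others. In the first 15 the A431 points go up and the CAL27 points down with treatment, and in TK1, RNASE7 and STARD13 the reverse.

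Several chaperones of the endoplasmic reticulum rose in A431 and fell in CAL27. Of 19 chaperone and XBP1 target genes, 11 rose and 4 fell in A431, and 6 rose and 8 fell in CAL27. For the interaction 11 were lower and 1, PDIA3, was higher in CAL27. The share called was 63.16%, against 55.26% of genes that reached 10 CPM in a group. The 5 opposite members were HSPA5, HYOU1, MANF, SEL1L and PDIA4, and all 5 rose in A431 and fell in CAL27. HSPA5 encodes BiP, the main chaperone of this compartment, HYOU1 its exchange factor, and SEL1L a part of the machinery that exports misfolded proteins. The HSPA5 promoter is shown because it holds the ER stress response element, ERSE, through which unfolded protein signals act on chaperone genes. The 250 bases lie at chr9:125241344-125241593 on the minus strand (GRCh38.p14, RefSeq start), with the match, which begins 66 bases before the start, in capitals.
HSPA5: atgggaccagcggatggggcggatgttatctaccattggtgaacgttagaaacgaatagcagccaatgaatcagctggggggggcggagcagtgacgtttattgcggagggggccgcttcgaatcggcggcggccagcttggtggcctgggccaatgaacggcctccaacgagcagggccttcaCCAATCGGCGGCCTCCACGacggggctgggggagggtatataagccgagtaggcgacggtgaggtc
The element was found in 6 of 18 promoters of the list (33.33%) and in 0.1158% of all promoters. The 6 were those of CANX, HSPA5, HSP90B1, CALR, XBP1 and CRELD2. Of the opposite members only HSPA5 was among them, so the share describes the list and not the opposite responses.

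HYOU1 rose from 118 and 124 to 208 and 179 CPM in A431 and fell from 113 and 115 to 81 and 82.9 in CAL27, with nearly equal levels under DMSO and an interaction of -1.15 ± 0.09. HSPA5 was among the more abundant RNAs, at 1047 and 1032 CPM in A431 under DMSO and 1577 and 1399 under NEDD8i, and 869 and 906 and then 752 and 812 in CAL27. The A431 groups were well apart, and the CAL27 groups were close without overlapping. Its fall in CAL27 was not called without CAL27_DMSO replicate 2 (-0.14, edgeR adjusted p = 0.0992), that of MANF was not called without CAL27_DMSO replicate 2 or CAL27_NEDD8i replicate 1 (edgeR adjusted p = 0.0709 and 0.0655), and the rise of PDIA4 in A431 was not called under scaling by library totals (0.09, edgeR adjusted p = 0.109). DNAJB9, another target of the same stress pathway, rose in both lines, from 12.7 and 10.9 to 27.9 and 28.4 CPM in A431 and from 12.5 and 10.4 to 22.5 and 19.9 in CAL27, and was not called for the interaction. In 11 of the 12 called members the lines were further apart under NEDD8i.

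Genes of ribosome assembly did the reverse for the distance between the lines. Of 20 tested, 11 rose and 1 fell in A431, 4 rose and 9 fell in CAL27, and 13 had the lower and 1, FBL, the higher response in CAL27. In 12 of these 14 the lines were closer under NEDD8i. The opposite members were NOP56, NOP14, BOP1 and POLR1B, with small responses, and all but POLR1B lost a call when a library was left out. The fall of NOP14 in CAL27 was not called without CAL27_DMSO replicate 1 or 2 (edgeR adjusted p = 0.0763 and 0.0681). In A431 the rise of BOP1 was not called without A431_DMSO replicate 2 or A431_NEDD8i replicate 1 (edgeR adjusted p = 0.275 and 0.119), nor that of NOP56 without A431_DMSO replicate 2 or A431_NEDD8i replicate 2 (0.0791 and 0.091), and the fall of NOP56 in CAL27 was lost without CAL27_DMSO replicate 2 (0.199). POLR1B, a subunit of RNA polymerase I, rose from 49.3 and 42.2 to 62.9 and 62.4 CPM in A431 and fell from 73.6 and 77 to 61.2 and 59.6 in CAL27. Under NEDD8i its 4 libraries lay between 59.6 and 62.9 CPM. MYC, a transcription factor that promotes ribosome assembly and growth, had a far larger change. It rose from 89.3 and 79.9 to 232 and 241 CPM in A431 and fell from 211 and 235 to 85.5 and 88.1 in CAL27, with an interaction of -2.84 ± 0.09 (edgeR adjusted p = 3.5e-13). The level of each treated line came to that of the other line's controls.

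Of 15 NOTCH pathway genes tested, 4 rose and 6 fell in A431, and 1 rose and 9 fell in CAL27. The 3 opposite members, the receptor genes NOTCH1 and NOTCH3 and the ligand gene JAG1, rose in A431 and fell in CAL27. NOTCH3 (chr19:15159038-15200995) rose from 142 and 151 to 452 and 465 CPM in A431 and fell from 259 and 256 to 149 and 168 in CAL27, with an interaction of -2.35 ± 0.08. JAG1 rose from 140.3 and 149 to 299.6 and 307 CPM and fell from 245 and 254 to 147 and 152 CPM. NOTCH1 fell in CAL27 from 232 and 212 to 57.9 and 53.5 CPM and stood at 65 and 69.1 and 77.7 and 83.1 in A431, a rise that was not called under scaling by library totals (0.16, edgeR adjusted p = 0.0521). The target gene HES1, in contrast, fell in both lines, from 80.7 and 76.8 to 14.8 and 14.2 CPM in A431 and from 52.9 and 56.5 to 5.17 and 5.88 in CAL27. In the pathway, 6 genes had the lower and 3 the higher response in CAL27. The share called was 60%, near the 55.26% of genes that reached 10 CPM in a group.

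In the EGF family, 7 of 14 genes had the lower and 1, TGFA, the higher response in CAL27. The share called was 57.14%, near the 55.26% of genes that reached 10 CPM in a group. NRG1, a ligand of ERBB3 and ERBB4, was opposite, from 17.7 and 16.7 to 45.8 and 45.1 CPM in A431 and from 105 and 99.1 to 67.5 and 63.7 in CAL27. BTC and ERBB3 were the other opposite members, but the rise of BTC in A431 was not called without A431_NEDD8i replicate 1 (edgeR adjusted p = 0.0599), and neither response of ERBB3 held without single libraries (edgeR adjusted p = 0.121 in A431 without A431_DMSO replicate 1, and 0.277 in CAL27 without CAL27_DMSO replicate 2). EREG, an EGFR ligand, rose in both lines from about the same level, from 38 and 39.4 to 318 and 326 CPM in A431 and from 37.5 and 36.6 to 98.6 and 101 in CAL27. EGFR itself, which A431 carries in many copies, fell from 2807 and 2914 to 2212 and 2311 CPM in A431 and from 1351 and 1376 to 586 and 567 in CAL27. TGFA rose from 37.1 and 34.9 to 90.6 and 95.5 CPM and from 46.1 and 45.2 to 188 and 170.5 CPM. In 7 of the 8 called genes the lines were further apart under NEDD8i.

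Downstream of these receptors, 14 of 26 MAPK feedback and immediate early genes had the lower and 4 the higher response in CAL27. FOS fell in both lines, from 841 and 675 to 248 and 272 CPM in A431 and from 578 and 589 to 32.1 and 29.6 in CAL27, and EGR2 fell from 4.97 and 4.35 to 0.481 and 0.728 CPM and from 11.4 and 12.6 to 0.186 and 0.134 CPM. DUSP1, a phosphatase that shuts off MAP kinases, was opposite, from 76.8 and 64.7 to 128 and 119 CPM in A431 and from 151 and 161 to 98.5 and 95.9 in CAL27. DUSP7 rose in both lines and by more in CAL27, with an interaction of 0.72 ± 0.12.

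Most interferon-stimulated genes fell in both lines, and most had the lower response in CAL27. Of 33 tested, 26 fell in A431 and 28 in CAL27, and 24 had the lower and 5 the higher response in CAL27. The median response was -0.62 in A431 and -1.57 in CAL27, and the median size of the difference between the lines went from 1.53 to 0.86 on the log2 scale. In 19 of the 29 called genes the lines were closer under NEDD8i. The IFIT1 promoter is printed because it holds 2 copies of the letters GAAANNGAA, on either strand, that mark the response element of interferon. It lies at chr10:89392373-89392622 on the plus strand (GRCh38.p14, 250 bases before the RefSeq start), with the matches, 115 and 102 bases before the start, in capitals.
IFIT1: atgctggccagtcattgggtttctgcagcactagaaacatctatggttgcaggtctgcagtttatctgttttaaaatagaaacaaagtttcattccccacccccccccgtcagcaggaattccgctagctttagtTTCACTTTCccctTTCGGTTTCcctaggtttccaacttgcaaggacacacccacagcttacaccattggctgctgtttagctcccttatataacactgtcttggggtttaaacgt
The letters were present in 17 of 26 promoters of the list (65.38%) and in 6.644% of all promoters. Among opposite responders of every kind they were present in 5.636%.

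IFIT1 fell from 46.9 and 49.3 to 9.32 and 7.03 CPM in A431 and from 161 and 162 to 19.8 and 16.7 in CAL27, and its interaction of -0.59 ± 0.14 was not called without A431_NEDD8i replicate 1 (-0.37, edgeR adjusted p = 0.0585). IFIT3 (chr10:89327307-89377473), whose protein binds viral RNA sensors, went from 91.1 and 95.3 to 29.3 and 28.1 CPM in A431 and from 285 and 291 to 31.9 and 31.2 in CAL27. The lines were well apart under DMSO, and all 4 NEDD8i libraries lay between 28.1 and 31.9 CPM. The interaction was -1.49 ± 0.08 (edgeR adjusted p = 2.3e-10). CMPK2, a mitochondrial nucleotide kinase, fell in CAL27 from 50.3 and 49.2 to 6.6 and 6.51 CPM, to the level of A431, which measured 8.13 and 8.36 and 8.51 and 6.81. IRF7 and HERC5 were among the 5 with the higher response in CAL27, and IRF7 fell from 11.1 and 10.9 to 4.11 and 5.81 CPM in A431 against 27.3 and 25.3 and 20.0 and 26.4 in CAL27. ISG15, the ubiquitin-like modifier of this system, fell about equally, by 1.25 ± 0.12 in A431 and by 1.19 ± 0.11 in CAL27. USP18, which removes ISG15, was the sole opposite member, and its rise in A431 was not called under scaling by library totals (0.24, edgeR adjusted p = 0.0828) nor without any 1 A431 library (edgeR adjusted p from 0.0536 to 0.0649).

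Antigen presentation genes fell in 13 of 17 cases in each line. CIITA, the master regulator of MHC class II genes, fell from 7.86 and 6.99 to 1.38 and 0.71 CPM in A431 and from 25.2 and 23.8 to 0.335 and 0.234 in CAL27, which again reversed the order of the lines. NLRC5, its counterpart for class I genes, fell in CAL27 from 32.8 and 29.8 to 6.75 and 8.44 CPM and was not called in A431, at 19.2 and 20.9 and 15.9 and 19.1. B2M, the light chain of class I molecules, fell by more in A431, from 1942 and 1960.0 to 1175 and 1112 CPM against 1315 and 1347 to 1070.0 and 1111. HLA-E was opposite, with responses of -0.24 ± 0.04 and 0.31 ± 0.04.

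Most hypoxia targets rose in both lines, and more had the larger rise in A431 than in CAL27. Of 24 tested, 21 rose in each line, and 14 had the lower and 3 the higher response in CAL27. The median response was 1.37 in A431 and 0.68 in CAL27. BNIP3, a mitophagy receptor, rose from 6.4 and 6.05 to 145 and 140.4 CPM in A431 and from 70.3 and 73.4 to 354 and 361 in CAL27, and CA9, carbonic anhydrase 9, from 5.63 and 4.73 to 34.6 and 35.2 and from 34.2 and 38.9 to 64.5 and 77.1 CPM. Both were far lower in A431 than in CAL27 under DMSO and less far apart under NEDD8i. VEGFA, the angiogenic factor, rose from 133 and 132 to 546 and 579 CPM in A431 and from 70.7 and 65.4 to 97.6 and 91.3 in CAL27, starting the higher in A431. EGLN3 and PFKFB4 were opposite. EGLN3, a hydroxylase that tags HIF for destruction, rose from 0.834 and 0.737 to 3.54 and 4.19 CPM in A431 and fell from 64.8 and 64 to 36.7 and 39.3 in CAL27, with an interaction of -3.06 ± 0.19. In 12 of the 17 called genes the lines were closer under NEDD8i.

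The glycolytic enzymes showed the same leaning, with 12 of 19 lower and 3 higher in CAL27. HK2, hexokinase 2, rose from 41.5 and 37.4 to 162 and 156 CPM in A431 and from 137 and 139 to 209 and 209 in CAL27. SLC2A1, the glucose transporter GLUT1 of the hypoxia list, rose from 433 and 428 to 1165 and 1107 CPM in A431 and from 456 and 449 to 517 and 511 in CAL27, from equal levels under DMSO. PFKM fell in both lines and by more in A431, with an interaction of 0.39 ± 0.09.

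NRF2 targets, the detoxifying and redox genes, rose in 28 of 30 cases in A431 and in 24 in CAL27, with median responses of 2.03 and 1.53. The interaction was called for 20, with 13 lower and 7 higher in CAL27, and in 15 of the 20 the lines were further apart under NEDD8i. Some members rose strongly in both lines with small, called interactions. TXNRD1, thioredoxin reductase, rose from 311 and 316 to 2643 and 2643 CPM in A431 and from 318 and 320.2 to 3196 and 3170.0 in CAL27, and GCLM, the modifier subunit of the first enzyme of glutathione synthesis, by 2.51 ± 0.04 and 2.25 ± 0.04. HMOX1, heme oxygenase, rose from 53.1 and 51.6 to 393 and 371 CPM in A431 and only from 6.34 and 6.9 to 10.7 and 12 in CAL27. AKR1C1 and AKR1B10, which reduce aldehydes and ketones, went to opposite ends of the list. The interaction was 3.77 ± 0.07 for AKR1C1 and -5.97 ± 0.18 for AKR1B10. AKR1C1 and AKR1C2 are near-identical copies, so reads may have been lost or split between them. ABCC3, a drug exporter, was the sole opposite member, from 42.6 and 51 to 114 and 117 CPM in A431 and from 21.9 and 21 to 11.9 and 14.8 in CAL27. The letters TGACNNNGC of the NRF2 element, searched on both strands, were present in 7 of 22 promoters of the list (31.82%), in 15.15% of all promoters and in 14.15% of those of opposite responders.

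Of 26 genes of the ATF4 stress response, 21 rose in A431 and 18 in CAL27. The interaction was lower in CAL27 for 12 and higher for 4. The share called was 61.54%, against 55.26% of genes that reached 10 CPM in a group. CHAC1 and PPP1R15A, which act in glutathione turnover and in the restart of translation, rose by more in CAL27. CHAC1 went from 35.1 and 36.4 to 117 and 124 CPM in A431 and from 5.41 and 4.51 to 46.2 and 46.1 in CAL27, and PPP1R15A from 61.2 and 68.8 to 162 and 179.8 and from 68 and 80.8 to 458 and 463 CPM. DDIT3, which encodes the stress factor CHOP, rose in both and was not called for the interaction (0.29 ± 0.20). ALDH1L2, a mitochondrial folate enzyme, fell in CAL27 from 12.6 and 12.3 to 4.31 and 4.03 CPM and was not called in A431, at 26.6 and 35.7 and 34.9 and 38.1. CEBPB and SLC38A2 were opposite, with interactions of -0.70 ± 0.09 and -0.59 ± 0.06, although the fall of CEBPB in CAL27 was not called without CAL27_DMSO replicate 1 (edgeR adjusted p = 0.059).

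Most mitotic genes fell in both lines. Of 30 G2/M genes 29 fell in A431 and 27 in CAL27, with medians of -1.33 and -1.18. The interaction was called for 19 of them (63.33%), 12 higher and 7 lower in CAL27, against 55.26% of genes that reached 10 CPM in a group. PTTG1, securin, fell from 76.6 and 72.6 to 21.4 and 20.1 CPM in A431 and from 85.8 and 90.0 to 59.1 and 65.9 in CAL27, and AURKB, Aurora kinase B, was called in A431 only, from 59.2 and 57.5 to 32.7 and 27.4 CPM against 96.1 and 103 and 101 and 94.9. CDC25B, a phosphatase that starts mitosis, fell by more in CAL27, from 315 and 315 to 40.0 and 41 CPM against 174 and 177 to 47.4 and 48.4 in A431.

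Of 25 genes of the G1/S transition, 14 rose and 9 fell in A431, and 17 rose and 4 fell in CAL27. The interaction was higher in CAL27 for 9 and lower for 5. The share called was 56%, near the 55.26% of genes that reached 10 CPM in a group. TK1, RRM1, CDKN1B and CDKN2A were opposite, all 4 falling in A431 and rising in CAL27. TK1, thymidine kinase, went from 418 and 392 to 288 and 281 CPM in A431 and from 279 and 273 to 397 and 438 in CAL27, so that each treated line reached the level of the other line's controls. CDKN1B, the p27 gene, went from 50.8 and 49 to 40.8 and 32.7 CPM and from 46.6 and 47 to 64.4 and 60.3 CPM. CDKN1A, the p21 gene, rose strongly in both, from 41.7 and 39 to 196 and 200.0 CPM in A431 and from 30.6 and 30.8 to 225 and 223 in CAL27. CCND1, cyclin D1, fell by more in CAL27, from 316 and 329 to 127 and 125 CPM against 858 and 859.9 to 771 and 768.

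Replication licensing genes had 9 higher and 4 lower responses in CAL27 among 22 tested. The share called was 59.09%, near the 55.26% of genes that reached 10 CPM in a group. CDC6, the loader of the MCM helicase, rose from 163 and 158 to 272 and 277 CPM in A431 and from 108 and 111 to 323 and 322 in CAL27. CDT1 was called in CAL27 only, from 93.2 and 92.4 to 143 and 143 CPM against 97.1 and 94.6 and 96.8 and 102 in A431. ORC6, of the complex that marks origins, rose from 34.5 and 36.5 to 50.3 and 52.2 CPM in A431 and from 35.7 and 36 to 98 and 98.1 in CAL27, from equal levels under DMSO.

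Genes of the inhibited pathway itself were called at a share not far above that of well-expressed genes. Of 13 genes of NEDD8 conjugation, 5 had the higher and 3 the lower response in CAL27. The share called was 61.54%, against 34% of all genes tested and 55.26% of those that reached 10 CPM in a group. NAE1 was called in A431 only, with responses of 0.69 ± 0.06 and -0.01 ± 0.06 and an interaction of -0.71 ± 0.09. UBE2M rose by about the same amount in both lines (0.79 ± 0.06 and 0.72 ± 0.06), and UBA3 was called in neither (-0.09 ± 0.09 and -0.02 ± 0.09). The interaction of UBE2M was -0.07 ± 0.08 and that of UBA3 0.07 ± 0.12, neither called. NEDD8 itself, whose exons overlap those of other genes over 22.65% of their length, was called in CAL27 only (0.11 ± 0.07 and 0.41 ± 0.07). Its interaction of 0.30 ± 0.10 was not called without A431_NEDD8i replicate 1 or 2, CAL27_DMSO replicate 1 or CAL27_NEDD8i replicate 1 (edgeR adjusted p from 0.0524 to 0.068). RBX1, the ring subunit common to most cullin ligases, fell in A431 from 86.7 and 77.7 to 54 and 58.1 CPM and measured 67.5 and 67.7 and 80.1 and 78.9 in CAL27, a rise that was not called under scaling by library totals (0.15, edgeR adjusted p = 0.0678). RNF7, the other ring subunit, fell in A431 by 0.62 ± 0.07 and had a CAL27 response of 0.15 ± 0.07, not called.

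Among 29 cullins and adaptors, 10 had the higher and 2 the lower response in CAL27. The share called was 41.38%, against 34% of all genes tested and 55.26% of those that reached 10 CPM in a group. CUL1, the scaffold of SCF ligases, was called in A431 only, from 68.7 and 68.2 to 109 and 108 CPM against 87.4 and 92.1 and 91.6 and 84.2 in CAL27. CUL4B, of the ligases that act on CDT1, was also called in A431 only but fell, from 73.7 and 74.5 to 47.3 and 50.3 CPM against 76.4 and 70.0 and 77.3 and 77.4. KLHL21, a CUL3 adaptor, rose in both and by more in CAL27, with an interaction of 0.85 ± 0.08. Of the 10 subunits of the COP9 signalosome, which removes NEDD8 from cullins, 3 were called (30%), each with the higher response in CAL27. That share lay below both of these general shares. COPS6 was opposite (-0.23 ± 0.05 and 0.28 ± 0.05). Proteasome subunits rose in 23 of 31 cases in each line. Of these 31 genes 10 had the higher and 5 the lower response in CAL27 (48.39% called). PSMD2 rose from 903 and 871 to 1348 and 1276 CPM in A431 and from 764 and 771 to 1666 and 1641 in CAL27.

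Epidermal programs changed unevenly. Of 16 basal keratinocyte genes 8 had the higher and 7 the lower response in CAL27. TP63, the transcription factor of basal squamous cells, was called in CAL27 only, from 522 and 529 to 124 and 109 CPM against 279.5 and 288 and 261 and 269 in A431. CAL27 was the higher under DMSO and the lower under NEDD8i, and the interaction was -2.08 ± 0.08 (edgeR adjusted p = 2.4e-12). KRT15, a basal keratin, fell in both, from 1835 and 1854 to 499 and 506 CPM in A431 and from 524 and 541 to 52.3 and 54.7 in CAL27. LAMB3, a chain of laminin 332, was called in CAL27 only, from 646 and 659 to 1765 and 1796 CPM against 965 and 971 and 1011 and 1028.

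Of 28 differentiation genes tested 6 had the higher and 8 the lower response in CAL27. The share called was 50%, against 34% of all genes tested and 55.26% of those that reached 10 CPM in a group. GRHL3, a barrier transcription factor, rose from 31.4 and 29.9 to 103 and 104 CPM in A431 and from 1.82 and 0.969 to 28 and 25.5 in CAL27. IVL, involucrin, was called in CAL27 only, from 2.19 and 2.54 to 8.18 and 11.2 CPM against 24.2 and 27.8 and 23.6 and 20.1. KLF4, another barrier factor, was opposite, from 40.7 and 41.1 to 58.3 and 59.9 CPM in A431 and from 69.9 and 74.1 to 32.3 and 29 in CAL27. Among stress keratins and alarmins, KRT16 rose by more in A431 (-1.70 ± 0.08) and KRT6A by more in CAL27 (0.70 ± 0.05). S100A9, a calprotectin subunit, was opposite, with 10.3 and 13 and then 17.8 and 16.1 CPM in A431 and 566 and 633 and then 399.9 and 337 in CAL27.

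Matrix proteases and their regulators included 8 genes with the lower and 3 with the higher response in CAL27 among 18 tested. In 9 of these 11 the lines were closer under NEDD8i. The share called was 61.11%, against 55.26% of genes that reached 10 CPM in a group. MMP1, collagenase, rose from 0.8 and 0.388 to 2.45 and 2.97 CPM in A431 and fell from 81.2 and 89.6 to 18.4 and 16 in CAL27, and its A431 response was 2.82 without A431_DMSO replicate 1 in place of 2.17. PLAU, the urokinase gene, rose from 65.5 and 63.4 to 124 and 132 CPM and fell from 372 and 392 to 312 and 322 CPM. SERPINB2, an inhibitor of urokinase, rose in both lines and by more in CAL27. It went from 83.6 and 73.9 to 540.0 and 539.6 CPM in A431 and from 5.73 and 5.96 to 675 and 617 in CAL27, so that a wide difference under DMSO became a small one, with CAL27 the higher.

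Of 25 p53 targets 6 had the higher and 7 the lower response in CAL27. The share called was 52%, against 34% of all genes tested and 55.26% of those that reached 10 CPM in a group. GDF15, a stress cytokine, had equal levels in the lines under DMSO, 16.1 and 15.9 CPM in A431 and 15 and 15.9 in CAL27. Under NEDD8i it measured 116 and 119 CPM in A431 and 7.43 and 9.86 in CAL27, and the interaction was -3.71 ± 0.15 (edgeR adjusted p = 6.8e-12). TRIAP1 was opposite the other way (-0.53 ± 0.09 and 0.40 ± 0.09), and MDM2 rose in both, by 0.77 ± 0.07 and 0.28 ± 0.07.

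**Figure D3:**
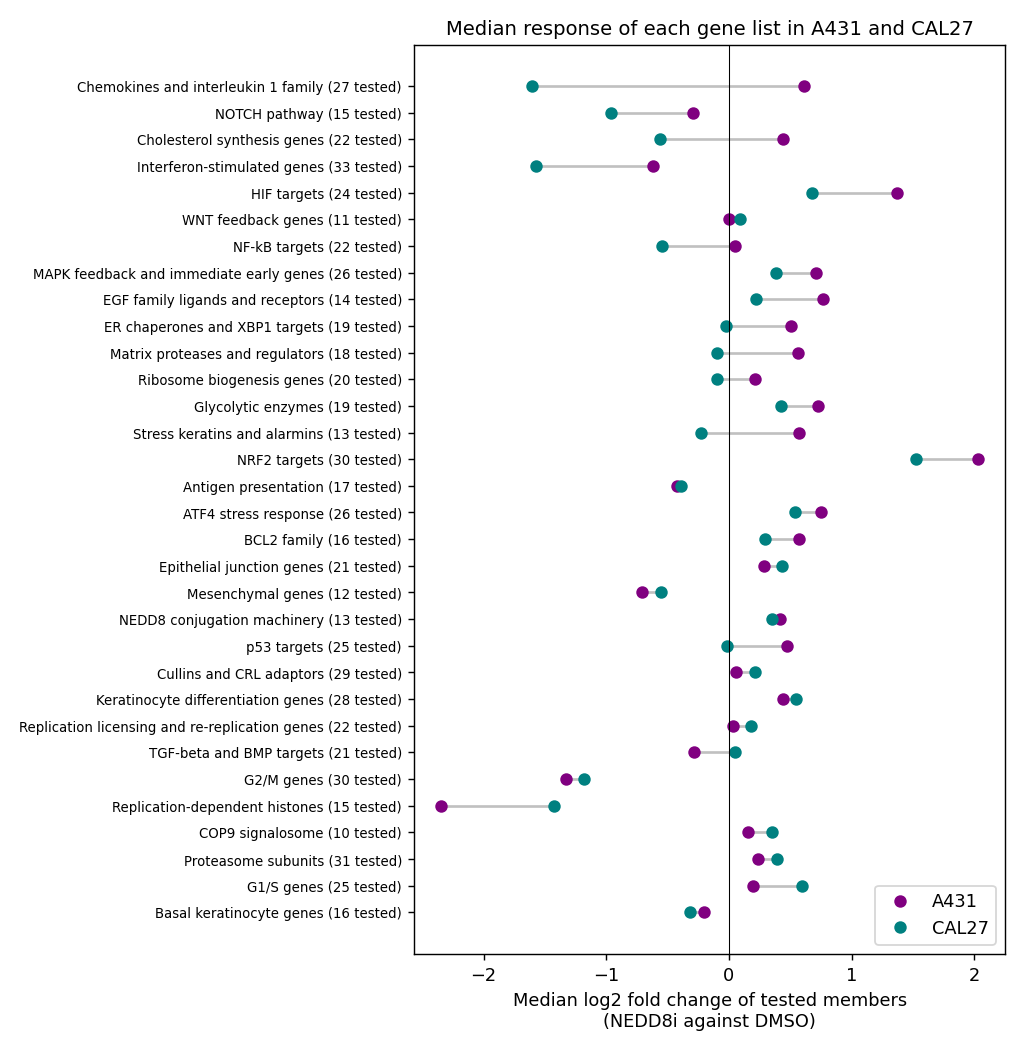
Median log2 fold change of the tested members of 32 gene lists in A431 (purple) and CAL27 (teal), ordered by the median interaction. Medians lie on different sides of 0 for the chemokine and interleukin 1 family (0.61 and -1.61, or 0.25 and -1.14 with the 8 members that had a group at 0 set to the floor) and the cholesterol genes (0.44 and -0.56), on the same side for G2/M genes (-1.33 and -1.18), and the lists were chosen with earlier results known.

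The genes with the largest interactions were mostly genes that 1 line hardly expressed in 1 state. F2RL2, a thrombin receptor of the protease-activated family, was at 0 in both A431 controls and at 10.2 and 10.5 CPM under NEDD8i, at least 376-fold higher against a floor of 3 counts for the group, and went from 0.296 and 0.242 to 8.29 and 7.68 CPM in CAL27. The level reached was similar in the lines. MAP1B, a microtubule protein, was also at 0 in both A431 controls and rose to 3.24 and 2.73 CPM, at least 108-fold, against 2.26 and 1.54 to 23.3 and 24.2 CPM in CAL27. IGFL1 rose in A431 from 0 to 1.75 and 2.37 CPM, at least 75.9-fold. C16orf54 went in CAL27 from 0.667 and 0.757 CPM to 0, at least 27.1-fold lower, beside 31.3 and 28.6 and 26.9 and 24.2 CPM in A431. FLRT2, a cell adhesion protein, went to 0 in treated A431, at least 19.1-fold lower, against 12.8 and 13.3 and 5.87 and 9.07 CPM in CAL27. Both mates of a read pair were counted, so that the floors are too low and the bounds too large.

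On the side where CAL27 was the higher, KRT34, a hair keratin, rose in CAL27 from 0.148 and 0.348 to 62.7 and 60.6 CPM and measured 0.122 and 0.233 and 0.263 and 0.765 in A431. IL24, a cytokine whose exons overlap those of another gene over 41.59% of their length, rose in CAL27 from 0.296 and 0.0908 to 9.07 and 9.46 CPM and was at or near 0 in every A431 library. SMPD3, a neutral sphingomyelinase, fell in A431 from 5.61 and 5.55 to 0.0438 and 0.146 CPM, to the level CAL27 had in both states (0.222 and 0.182 and 0.279 and 0.1). For IL24 the interaction was not called without A431_DMSO replicate 1 (edgeR adjusted p = 1.0).

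Some genes answered in the same direction and to very different degrees. AKR1B10 rose from 1.46 and 1.15 to 579.6 and 571 CPM in A431, 438-fold, and from 3.26 and 2.33 to 18.9 and 19.7 in CAL27, 6.99-fold. PLCXD2, a phospholipase-related protein, rose from 1.9 and 2.75 to 8.4 and 8.43 CPM in A431 and from 2.96 and 2.27 to 150.2 and 136 in CAL27, from overlapping levels under DMSO. GBP4, an interferon-induced GTPase, fell from 90.7 and 87.6 to 48.2 and 47.1 CPM in A431 and from 67.4 and 61.5 to 2.04 and 2.19 in CAL27. AOC1, diamine oxidase, fell in A431 from 153 and 138 to 74.5 and 74 CPM and in CAL27 from 0.222 and 0.151 CPM to 0. That fall in CAL27 rests on 22 counts, at least 6.945-fold against the floor of 3 counts, a bound that is again too large. The interaction of AOC1 was -5.39 and went from -5.62 to -1.64 under the alternatives.

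The last question was whether the line-dependent responses brought the lines together or apart. For each gene the difference between the lines, CAL27 against A431, was taken under DMSO and under NEDD8i, which share no library. Under DMSO 5602 genes were higher in CAL27 (29.9% of those tested) and 5443 lower (29%), and under NEDD8i 5658 were higher (30.2%) and 5952 lower (31.8%). The median size of the difference was 0.72 under DMSO and 0.84 under NEDD8i (log2), and it was larger under NEDD8i in 55.65% of all genes tested.

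Among the 6369 genes called for the interaction, the difference was larger under NEDD8i in 3807 and smaller in 2562, so 59.77% moved apart. A difference that was called under DMSO and no longer under NEDD8i is described as closed, one called only under NEDD8i as opened, and one called in both states as narrowed, widened or, where its sign turned, crossed. By these terms 1000 closed, 1167 narrowed, 794 crossed, 1369 opened and 1988 widened, and 51 were called in neither state.

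Opposite responses did not bring the lines together as a class. The difference was larger under NEDD8i in 587 of the 935 opposite responders and smaller in 348, so 62.78% moved apart, with a median size of 0.60 under DMSO and 0.90 under NEDD8i. In the genes that rose in A431 and fell in CAL27 the share was 65.42%, and in the reverse class 57.68%. Of the opposite responders 229 of 935 (24.49%) crossed, and of the genes that moved the same way to different degrees 239 of 2137 (11.18%), a difference that was not tested. In the latter 60.55% moved apart, as did 53.58% of genes called in A431 only and 61.86% of those called in CAL27 only. With stronger opposite responses the leaning was smaller. Of 182 genes that moved at least 1.5-fold in both lines, 109 were further apart and 73 closer, and of 63 that moved at least 2-fold in both, 32 were further apart and 31 closer.

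**Figure D4:**
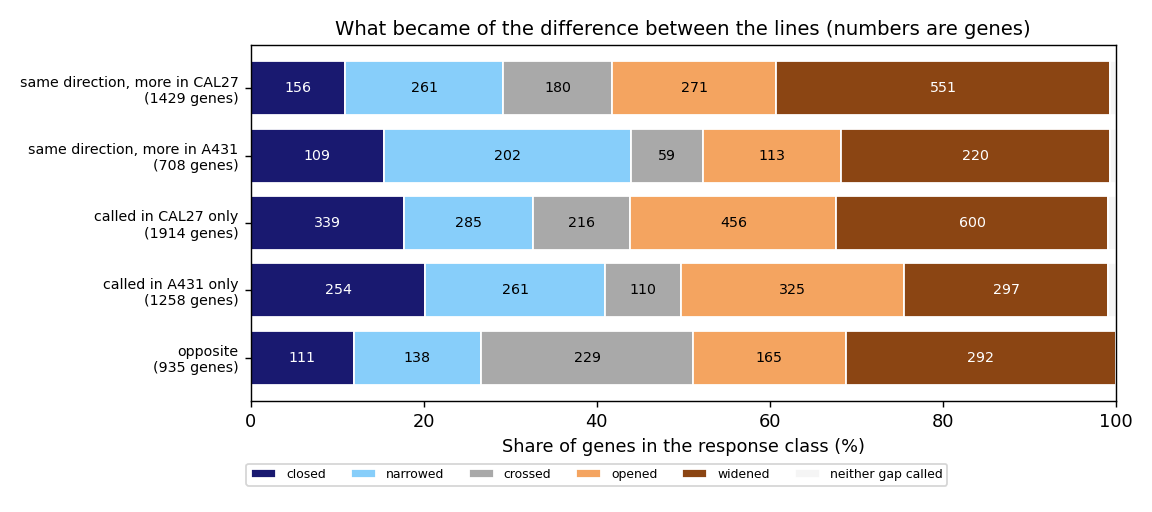
For the 5 kinds of line-dependent response (rows), the share of genes (x axis, percent) whose difference between the lines closed, narrowed, crossed, opened or widened under NEDD8i, with the number of genes in each segment. Crossed genes make up 229 of the 935 opposite responders, and widened and opened genes together are the larger part in the row of genes called in CAL27 only (600 and 456 of 1914).

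The genes named above show each of these outcomes. CXCL1, MMP1 and EGLN3 were far higher in CAL27 under DMSO and narrowed, the difference going from 8.27 to 2.14 for CXCL1, from 7.14 to 2.66 for MMP1 and from 6.35 to 3.29 for EGLN3 (log2). IL1B, MYC, NOTCH3 and TK1 crossed. MVD also crossed, but its small difference under DMSO (0.27) was not called without A431_DMSO replicate 2 (0.19, edgeR adjusted p = 0.119) or CAL27_DMSO replicate 2 (0.23, edgeR adjusted p = 0.0953). GDF15, HYOU1 and HAP1 opened from near-equal levels, GDF15 from -0.05 to -3.76. SQLE, RNASE7 and ZNF469 widened. Lists leaned in both directions: called members moved apart in 16 of 19 cholesterol genes, 11 of 12 chaperone genes and 15 of 20 NRF2 targets, and came closer in 13 of 15 chemokine and interleukin 1 genes, 12 of 14 ribosome genes, 12 of 17 hypoxia genes and 19 of 29 interferon genes.

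Whole profiles gave the same picture at a small scale. The distance between 2 libraries was taken as the root mean square difference of log2 CPM over all genes tested. Libraries of different lines lay 1.819 to 1.856 apart under DMSO and 1.852 to 1.908 under NEDD8i, so the ranges overlapped and the means differed by 0.045. Replicates lay 0.6027 to 0.7711 apart. Treatment moved A431 libraries by 1.113 to 1.178 and CAL27 libraries by 1.273 to 1.282, so the line separated libraries by more than the inhibitor did. Over the 9908 genes with at least 10 CPM in 2 libraries, the distances were 1.49 to 1.503 under DMSO and 1.539 to 1.556 under NEDD8i and did not overlap. The difference of the means was 0.014 without A431_NEDD8i replicate 1 and 0.022 without A431_DMSO replicate 1 or without CAL27_NEDD8i replicate 2. The filter on low counts was rerun each time, so these values cover 20232 to 20723 genes in place of 18738. Pairs share libraries, and no test of these 8 distances was made.

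**Figure D5:**
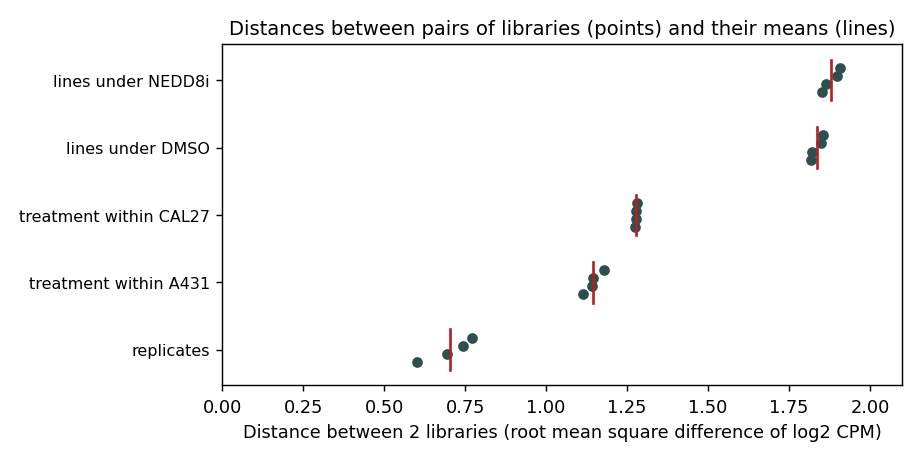
Distance between pairs of libraries (points; x axis, root mean square difference of log2 CPM over the genes tested) by kind of pair, with the mean of each kind as a line. Pairs of different lines under the same treatment lie at 1.819 to 1.908, beyond the pairs within a line, and the NEDD8i pairs reach slightly further than the DMSO pairs. Pairs that differ in both line and treatment are not drawn and lay at 1.916 to 2.079.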

How the data were processed

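RNA was measured with QuantSeq FWD 3' libraries, per the labels' protocols. The deposited files hold counts per gene made with featureCounts 2.0.8 over GENCODE 39 basic exons, per the file headers, after alignment to GRCh38 with STAR, per the submitters' processing notes. The sources used here give neither STAR's version nor the alignment filter. Counting ignored strand and counted each mate of a pair once, per the file headers, and 70.2% to 76.7% of the counts from 1 to 40 in a library were even. Single counts are thus not separate molecules, and reads over antisense or near-identical genes cannot be told apart or were dropped. Of 61533 identifiers 42083 matched a symbol.

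Counts were fitted in edgeR 4.0.16 (R 4.3.3) with 1 mean per line and treatment (4 groups), TMM factors of 0.9321 to 1.064, 4 residual degrees of freedom and the quasi-likelihood test, and p-values were adjusted over all 18738 genes left by filterByExpr. SE is the log2 value divided by the root of F. The scripts were tested on simulated data. DESeq2 1.42.0, limma 3.58.1, other factors, filters and thresholds, halved counts, a replicate block and each library left out served as alternatives, and the restriction to 10 CPM in a group was chosen after seeing the data. Genes were named by size of response, interaction or change of difference, at 5 CPM or more and with under 50% of exonic bases shared. From each list up to 2 called members per direction were named, whatever their CPM or shared bases. Other list members were named after their values were seen, and some members the rule names are not reported here. The members and lists were chosen with earlier results of these data known. Promoters are from RefSeq (GRCh38.p14), and the NF-kB and ERSE motifs were added after seeing the data.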

Additional observations from a re-analysis of the deposited data

Results flagged for a closer look

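The responses of the lines differed by the test of the difference itself for 6369 genes, and 935 of these moved in opposite directions (edgeR's quasi-likelihood test with Benjamini-Hochberg adjustment). Among genes that reached 5 CPM in a group, the 8 that rose in A431 and fell in CAL27 with the largest smaller response of the 2 lines had interactions of -7.69 for ZNF469, -6.12 for CXCL1, -5.76 for CCL20, -4.98 for GCNT3, -4.88 for MME, -4.83 for P2RY6, -4.48 for MMP1 and -3.69 for IL1B (log2, CAL27 minus A431). The 8 chosen in the same way that fell in A431 and rose in CAL27 had interactions of 2.85 for STARD13, 2.86 for HAP1, 2.97 for GEM, 3.65 for LIMCH1, 3.90 for CLTRN, 4.06 for RNASE7, 5.60 for SEMA6D and 8.65 for ADAMTS6.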

How the results depend on the processing

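No called interaction of a gene named above changed sign under the alternatives run. Among the 935 opposite responders, the sign of a response turned in 1 gene under scaling by library totals, in 1 without A431_DMSO replicate 1, in 2 without A431_DMSO replicate 2 and in 1 without A431_NEDD8i replicate 1. The share of A431 calls that rose went from 51.67% to 41.58% under library totals. Counts of calls for the interaction, for either line's response and for the differences between the lines stayed within 1.5 times of those given, as did the shares of genes that moved apart. At an adjusted p under 0.01 there were 608 opposite responders in place of 935, and with single libraries left out 723 to 931. Under scaling by library totals there were 916, of which 674 were shared with the 935. The mean distance between the lines was larger under NEDD8i by 0.04488, by 0.02472 under library totals and by 0.06776 with a prior count of 0.5. With single libraries left out it was larger by 0.01402 to 0.05691, over 20232 to 20723 genes in place of 18738. Of 62 opposite responders named above, 46 stayed opposite under every alternative that gave a value. With 2 libraries per group, single libraries decide calls that rest on few counts.

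Deviations of libraries with the same replicate number from their group means correlated at -0.0303 to 0.0194 over all genes tested. Many of these genes have low counts, so a pairing that touched few genes could not be seen this way. With the replicate block, 6239 genes were called for the interaction, of which 6164 were shared with the 6369, and 932 genes were opposite responders.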
